A study of Mus musculus with 6 samples.

Results

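The forkhead (Fox) transcription factor family was compared in the mandibular arch of mouse embryos. Members were chosen by symbol from the platform annotation, as Fox followed by a letter from a to s and a number. The rule found 37 genes of 18194 measured, on 82 probe sets, and each gene was read on its brightest probe set. RNA was profiled on 6 Affymetrix arrays, 3 from Tbx1-/- and 3 from Tbx1+/+ mandibular arches of C57BL/6 embryos at stage E10.5. Tbx1-/- embryos lack both functional copies of Tbx1, the gene of a T-box factor of the pharyngeal arches, and Tbx1+/+ embryos are their wild-type counterparts. The null is carried by the whole embryo, and the labels do not say which exons it removes. Arches from 3 embryos of a genotype were pooled, and whether each array had its own pool is not stated. The p-values therefore measure only the spread between these samples, which may be technical.

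Forkhead proteins bind DNA through a winged-helix domain, and members of a subfamily often share sites and domains of expression. In the head, Foxc, Foxd and Foxf genes are known from mesenchyme of neural crest or mesoderm, Foxa genes from endoderm, and Foxo, Foxk, Foxj and Foxp genes from many tissues. In mouse, Foxa2, Foxc1 and Foxc2 are also known as regulators upstream of Tbx1, through a forkhead site that responds to Sonic hedgehog signalling.

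The labels were checked first. Tbx1 itself, read on log2 scale like all values here, was 7.59, 7.50 and 7.30 on the arrays labelled Tbx1-/- and 6.93, 7.31 and 6.92 on the Tbx1+/+ arrays. Its transcript was thus not lower on the arrays labelled Tbx1-/-, but higher by 0.41 (SE 0.14, 95% interval 0.08 to 0.74), with overlapping groups. Its unadjusted p was 0.0205 in limma, and its adjusted p was not under 0.05. The arrays labelled Tbx1-/- are called labelled-null arrays below, and every direction follows the labels. Markers of arch mesenchyme, such as Hand2, Dlx5, Barx1 and Prrx1, were above 4 on all arrays in 10 of 10 cases. So were 15456 of the 16074 genes tested, so this count says little about the labels. Labelled-null replicate 3 stood apart, where 249 genes exceeded the average of their other arrays by over 1, against 6 to 32 genes on each of the rest. The log2 of the summed level of 6 placental markers was 14.53 on this array, against 7.90 and 8.08 on the other labelled-null arrays and 7.69 to 7.90 on the wild-type arrays. Xist, the RNA of the inactive X chromosome, was at 5.60 on labelled-null replicate 2, against 10.60 and 11.55 on the other labelled-null arrays and 10.44 to 11.53 on the wild-type arrays. Xist and the placental markers thus differed widely between labelled-null arrays, and whether these came from separate pools was not tested.

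Foxc1, Foxc2, Foxd1 and Foxl2 averaged 1.45-fold to 1.51-fold lower on the labelled-null arrays, and no other tested forkhead gene differed as much. For each of the 4 genes, all 3 labelled-null arrays lay below all 3 wild-type arrays. They were the only forkhead genes with an unadjusted p under 0.05 in limma, and 0 forkhead genes passed the adjusted threshold of 0.05, which 6 of 16074 genes passed (0.0373%). Of the 32 forkhead genes tested, 4 (12.5%) were lower by this measure, against 1.20% of all genes, and 0 were higher, against 1.47%. Groups did not overlap, with the labelled-null arrays lower, for 4 tested members, against 3.25% of all genes, and with them higher for 0, against 3.17%. Differences of -0.5 or below were found for the same 4 members, against 0.491% of all genes. That mark was not planned, so this count adds no separate support. With 3 arrays in each group, a two-sided exact permutation test gave p = 0.10 for each of the 4 genes, the smallest it allows.

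Upstream sequence is shown for those of the 4 genes that the RefSeq promoter table holds. Foxd2 and Foxf2, mesenchymal relatives whose groups overlapped, are shown for comparison. Each run is the 250 bases before the annotated start, 5′ to 3′ on the gene's strand, from the RefSeq table of build GRCm38.p6. The regions are chr13:31806396-31806645, plus strand, for Foxc1; chr13:98353995-98354244, plus strand, for Foxd1; and chr9:98955357-98955606, plus strand, for Foxl2. Those of the relatives are chr4:114908899-114909148, minus strand, for Foxd2 and chr13:31625566-31625815, plus strand, for Foxf2. Capitals mark matches on either strand to the motifs searched.
Foxc1: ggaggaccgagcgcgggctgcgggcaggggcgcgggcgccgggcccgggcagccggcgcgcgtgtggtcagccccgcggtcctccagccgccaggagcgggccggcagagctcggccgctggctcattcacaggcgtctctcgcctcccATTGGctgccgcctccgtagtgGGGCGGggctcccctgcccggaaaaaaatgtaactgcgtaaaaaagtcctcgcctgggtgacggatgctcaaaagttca
Foxd1: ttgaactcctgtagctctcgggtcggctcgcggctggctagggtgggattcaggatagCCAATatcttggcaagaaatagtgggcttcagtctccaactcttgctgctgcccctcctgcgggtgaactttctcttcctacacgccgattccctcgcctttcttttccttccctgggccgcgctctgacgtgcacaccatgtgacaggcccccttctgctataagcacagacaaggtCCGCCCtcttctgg
Foxl2: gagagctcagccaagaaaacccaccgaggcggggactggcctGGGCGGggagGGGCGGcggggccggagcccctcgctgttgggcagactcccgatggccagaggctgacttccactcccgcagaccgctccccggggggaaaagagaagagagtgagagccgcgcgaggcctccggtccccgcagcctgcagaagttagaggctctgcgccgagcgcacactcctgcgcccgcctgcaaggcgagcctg
Foxd2: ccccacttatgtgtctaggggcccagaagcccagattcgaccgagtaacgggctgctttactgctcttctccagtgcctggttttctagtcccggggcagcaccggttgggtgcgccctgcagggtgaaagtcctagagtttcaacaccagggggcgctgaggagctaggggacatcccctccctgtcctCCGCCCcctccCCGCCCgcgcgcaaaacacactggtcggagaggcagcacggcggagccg
Foxf2: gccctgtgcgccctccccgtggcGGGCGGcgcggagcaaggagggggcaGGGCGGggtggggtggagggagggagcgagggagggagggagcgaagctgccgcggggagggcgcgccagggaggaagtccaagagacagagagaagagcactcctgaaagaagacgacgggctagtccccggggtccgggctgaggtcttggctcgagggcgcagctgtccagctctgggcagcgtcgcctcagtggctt
Letters were searched with their reverse complements. TCACACC served for the core of a T-box site. The core that forkhead proteins bind was written as TGTTTAC. GACCACCC served for the hedgehog effectors of the GLI family. GGGCGG is the GC box found in many promoters without tissue restriction. The remaining pair were the CCAAT box, by its name, and the TATA box, written as TATAAA. GC boxes stood in all 5 windows, and in 23 of the 33 windows of forkhead genes in the table, against 32.7% of all 32851 windows of this length. CCAAT boxes stood in the Foxc1 and Foxd1 windows and not in those of Foxl2, Foxd2 and Foxf2, against 33.8% of all windows. The T-box, GLI, forkhead and TATA letters were in none of the 5 windows, and 3.33%, 0.703%, 3.17% and 12.4% of all windows held them. G and C made up 57.2% of the Foxd1 window and 64.4% to 71.6% of the other 4. These matches describe letters only.

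Foxc1 and Foxc2 are close relatives that act together in head mesenchyme, vessels and somites. Foxc1 read 9.63, 9.56 and 9.64 on the labelled-null arrays and 10.10, 10.05 and 10.29 on the wild-type arrays. The labelled-null values lay within 0.08 of each other and well below the lowest wild-type value. The difference was -0.54 (SE 0.09, 95% interval -0.74 to -0.33), with an adjusted p = 0.293 in limma. A second Foxc1 probe set gave 7.67, 7.67 and 7.78 on the labelled-null arrays and 8.27, 8.19 and 8.16 on the wild-type arrays, again without overlap, and a difference of -0.50.

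Foxc2, also known for its part in lymphatic vessels, read 10.498, 10.267 and 10.315 on the labelled-null arrays and 11.046, 10.877 and 10.809 on the wild-type arrays. Every labelled-null value was below every wild-type value. Its difference was -0.55 (SE 0.10, 95% interval -0.77 to -0.33), with an adjusted p = 0.293 in limma. The differences of Foxc1 and Foxc2 were 0.01 apart (SE 0.14). In bulk tissue, fewer cells that express a gene and less transcript per cell cannot be told apart.

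Foxd1, a mesenchymal factor best known from kidney stroma and also expressed in facial mesenchyme, read 8.58, 8.49 and 8.41 on the labelled-null arrays and 9.09, 9.24 and 8.93 on the wild-type arrays. The groups did not overlap, and the difference was -0.59 (SE 0.11, 95% interval -0.84 to -0.35), with an adjusted p = 0.340 in limma. Foxd2, its closest relative in arch mesenchyme, read 9.20, 8.98 and 8.95 on the labelled-null arrays and 8.87, 9.22 and 9.05 on the wild-type arrays. Its values overlapped throughout, with a difference of 0.00 (SE 0.12, 95% interval -0.28 to 0.28). The difference of Foxd1 was lower than that of Foxd2 by 0.59 in size (-0.59, SE 0.11), with p = 0.10 in the exact permutation test. That p was 0.300 after adjustment over the 6 pairs of relatives or neighbours compared, which were chosen after their values were seen.

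Foxl2, a regulator of ovary and eyelid development, read 6.80, 6.34 and 6.68 on the labelled-null arrays and 7.11, 7.10 and 7.32 on the wild-type arrays. The labelled-null arrays were again all lower, with replicate 2 the lowest. The difference was -0.57 (SE 0.15, 95% interval -0.91 to -0.24), with an adjusted p = 1.00 in limma. The other Foxl2 probe set was dim, between 3.69 and 3.82 on the labelled-null arrays and between 3.76 and 3.94 on the wild-type arrays, and differed by -0.07. That set stayed below 4 on every array, so the values of Foxl2 rest on the brighter one, and with the mean of both sets the difference was -0.32.

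**Figure D1:**
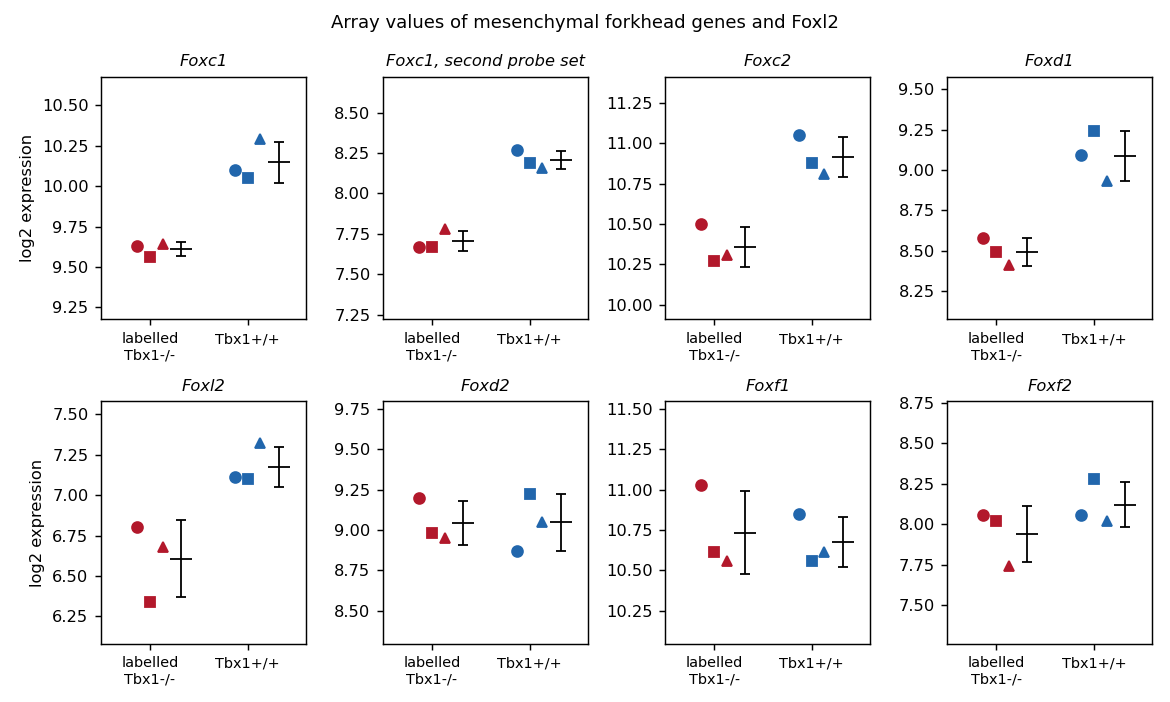
Log2 expression on each array (circle, square and triangle for replicates 1, 2 and 3) for the mesenchymal forkhead genes tested and Foxl2, labelled Tbx1-/- in red and Tbx1+/+ in blue. Bars show the mean and SD of 3 arrays, and every panel spans the same range of log2 units. The groups do not overlap for Foxc1 on either probe set, Foxc2, Foxd1 and Foxl2, and overlap for Foxd2, Foxf1 and Foxf2.

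Foxf1 and Foxf2, mesenchymal factors that respond to hedgehog signals from adjoining epithelium, showed no such separation. Foxf1 read 11.03, 10.61 and 10.56 on the labelled-null arrays and 10.85, 10.56 and 10.61 on the wild-type arrays, with replicate 1 the highest in both genotypes. It differed by 0.06 (SE 0.14, 95% interval -0.25 to 0.38). Foxf2, needed for the palate in mouse, read 8.06, 8.02 and 7.74 on the labelled-null arrays and 8.06, 8.28 and 8.02 on the wild-type arrays. Its difference of -0.18 (SE 0.13, 95% interval -0.47 to 0.11) came with overlapping groups, and it was -0.08 without labelled-null replicate 3. The intervals of both genes include 0 and leave room for differences in either direction. That of Foxf2 reaches down to -0.47, so Foxf2 is not shown to be unchanged.

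The relatives lie in gene clusters. In the order of the RefSeq gene table, Foxf2 stands between Foxq1 and Foxc1 with 0 protein-coding genes on either side, and Foxc2 is next to Foxl1 and separated by 1 gene from Foxf1. Foxc2 differed by -0.55, and its cluster neighbours Foxf1 and Foxl1 by 0.06 and -0.15 (SE 0.16). The difference of Foxc2 was lower than that of Foxf1 by -0.61 (SE 0.09), with p = 0.10 in the exact permutation test and 0.300 after adjustment. In the other cluster Foxc1 differed by -0.54, Foxf2 by -0.18 and Foxq1 by 0.11 (SE 0.21). The difference of Foxc1 was lower than that of Foxf2 by -0.36 (SE 0.19), with an exact permutation p = 0.20.

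By group, 3 of the 6 mesenchymal genes tested (Foxc, Foxd and Foxf) passed an unadjusted p under 0.05 (limma) as lower (against 1.20% of all genes), and the median difference of the 6 was -0.36. The remaining mesenchymal members, Foxd3 and Foxd4, did not pass the filter on dim genes, which asks for a log2 level over 4 on at least 3 arrays. Foxd3, a specifier of neural crest, read 3.75, 3.54 and 3.85 on the labelled-null arrays and 4.10, 3.89 and 3.48 on the wild-type arrays, so its level was near background in both. Foxd4 stayed at 2.75 or below on all arrays. With Foxd3 and Foxd4 included, the median of the group was -0.15. Of the 3 endodermal genes tested (Foxa and Foxe) and the 12 widely expressed ones, 0 had an unadjusted p under 0.05 (over all genes, 1.20% were lower and 1.47% higher), with medians of -0.11 and 0.02. Over all genes the median was -0.01. All tested members except Foxj1 were above 4 on every array, so the filter did not depend on either genotype for them.

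**Figure D2:**
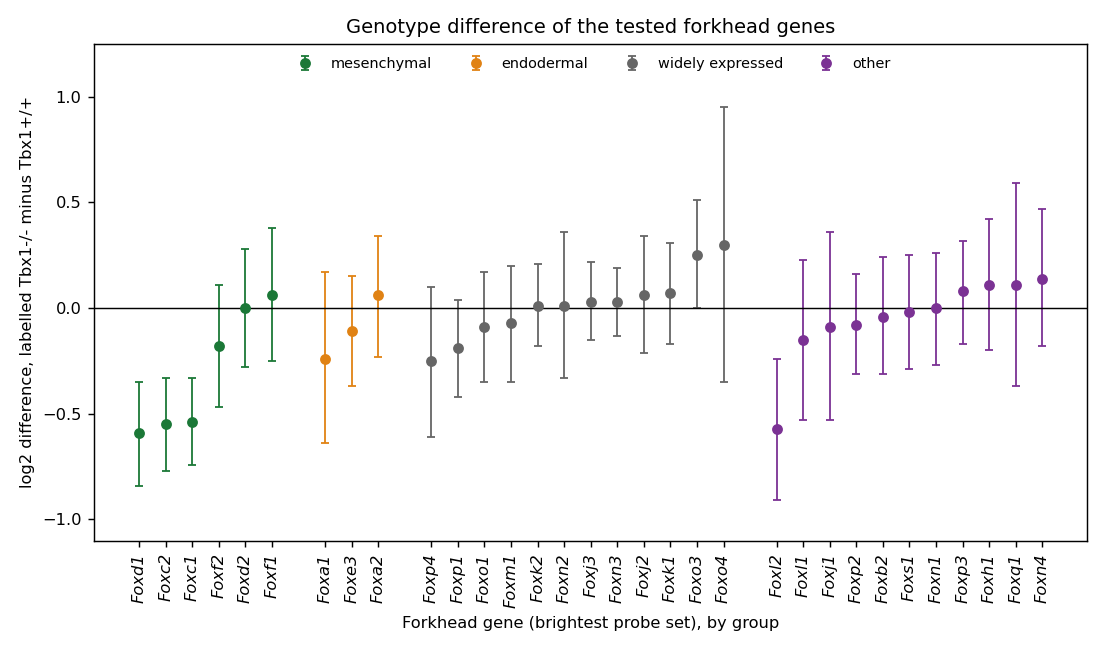
Log2 difference, labelled Tbx1-/- minus Tbx1+/+, of the 32 forkhead genes tested, by group, with limma's 95% interval from 3 arrays per genotype. The intervals of Foxd1, Foxc2, Foxc1 and Foxl2 lie wholly below 0, between -0.91 and -0.24, and all others include 0 at the precision printed.

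Among endodermal members, Foxa1 and Foxa2 are pioneer factors of foregut endoderm. Foxa1 read 8.10, 7.68 and 7.58 on the labelled-null arrays and 8.19, 8.16 and 7.72 on the wild-type arrays, with replicate 3 the lowest in each genotype. It differed by -0.24 (SE 0.18), with an exact permutation p = 0.20. Without labelled-null replicate 1 the difference was -0.39 and its unadjusted p fell under 0.05, and without wild-type replicate 3 it was also -0.39 and did not. Without labelled-null replicate 3 the difference was -0.13, and without wild-type replicates 1 or 2 it was -0.15 or -0.17. Foxa2 read 6.15, 6.18 and 6.35 on the labelled-null arrays and 6.09, 6.34 and 6.08 on the wild-type arrays, a difference of 0.06 (SE 0.13). Foxe3, grouped here by its subfamily although it is best known from the lens, differed by -0.11 (SE 0.12). Foxa3, known from liver and gut, stayed at 3.76 or below on all arrays and was not tested.

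Most widely expressed members differed little. Of the 12, 8 differed by at most 0.1 in either direction, a share of 66.7%, against 66.8% of all genes. Foxk1 and Foxk2, repressors linked to metabolism, differed by 0.07 (SE 0.11) and 0.01 (SE 0.09). Foxj2, Foxj3, Foxn2 and Foxn3 differed by 0.01 to 0.06. Foxm1, a driver of mitotic genes, read 8.77, 8.98 and 9.19 on the labelled-null arrays and 8.97, 9.07 and 9.11 on the wild-type arrays, a difference of -0.07 (SE 0.12).

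The Foxo genes encode factors that insulin signalling holds out of the nucleus and that respond to stress. Foxo3 read 11.70, 11.46 and 11.36 on the labelled-null arrays and 11.14, 11.20 and 11.43 on the wild-type arrays. Wild-type replicate 3 lay inside the labelled-null range, and the difference was 0.25 (SE 0.11), with an exact permutation p = 0.20. All 3 Foxo3 probe sets averaged higher, by 0.15 to 0.25. On the second brightest, Foxo3 read 11.52, 11.40 and 11.31 on the labelled-null arrays and 11.09, 11.26 and 11.30 on the wild-type arrays, so the groups did not overlap there, although their nearest arrays were at 11.31 and 11.30. Without labelled-null replicate 1, the difference on the brightest set was 0.16. Foxo1 differed by -0.09 (SE 0.11). On its second brightest set, Foxo1 read 8.29 to 8.41 on the labelled-null arrays and 8.43 to 8.55 on the wild-type arrays. These groups did not overlap, and the difference was -0.14.

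Foxo4 read 11.05, 11.15 and 12.27 on the labelled-null arrays and 11.02, 11.25 and 11.29 on the wild-type arrays. A single array, labelled-null replicate 3, was high, and the other 5 lay within 11.02 to 11.29. Its difference was 0.30 (SE 0.28) with all arrays and -0.09 without that array. The array is the one on which the placental markers were high (14.53 as a summed level), and their part in the Foxo4 value was not tested.

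Foxp1, Foxp2 and Foxp4 encode repressors that can pair with one another. Foxp1 read 11.57, 11.56 and 11.42 on the labelled-null arrays and 11.92, 11.57 and 11.62 on the wild-type arrays, where replicate 2 touched the labelled-null range. It differed by -0.19 (SE 0.10), with an exact permutation p = 0.20, and 7 of its 8 probe sets averaged lower. Without wild-type replicate 1 the Foxp1 difference was -0.08. Foxp4 read 10.29, 10.52 and 10.76 on the labelled-null arrays and 10.49, 11.01 and 10.83 on the wild-type arrays, a difference of -0.25 (SE 0.16), which was -0.39 when wild-type replicate 1 was left out and -0.13 when labelled-null replicate 1 was. Foxp2, counted among members of restricted domains and known for speech circuits in human, differed by -0.08 (SE 0.10), and all 6 of its sets averaged lower, by -0.22 to -0.04. With the replicate number as a block in limma, Foxp1 and Foxp4 joined the 4 genes above, so 6 members were lower at an unadjusted p under 0.05, against 1.89% of all genes, and 0 higher, against 2.35%. The adjusted p of Foxp1 and of Foxp4 was 1.00 in this fit.

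The other members have restricted domains, and apart from Foxl2 none of those tested separated the genotypes on its brightest set. A dim Foxn1 set was higher, at 3.36 to 3.62 on the labelled-null arrays and 3.26 to 3.33 on the wild-type arrays. A dim Foxp2 set was lower, at 3.80 to 4.05 against 4.07 to 4.24. Foxs1, known from pericytes and peripheral neurons, read 4.57, 4.53 and 4.33 on the labelled-null arrays and 4.52, 4.42 and 4.54 on the wild-type arrays. Foxl1, a factor of gut mesenchyme, read 5.21, 5.03 and 4.80 on the labelled-null arrays and 5.39, 4.90 and 5.20 on the wild-type arrays. These levels overlapped between genotypes. Foxj1, the regulator of motile cilia, lay between 3.57 and 4.37 on the labelled-null arrays and between 3.99 and 4.12 on the wild-type arrays. Foxq1 differed by 0.11 (SE 0.21), Foxh1, a partner of Smad proteins, by 0.11 (SE 0.14), and Foxn4, a neural factor, by 0.14 (SE 0.14). Foxn1 of the thymus, Foxp3 of regulatory T cells and Foxb2 differed by 0.00, 0.08 and -0.04. Foxb1 and Foxi1 were not tested, and Foxb1 stayed at 3.62 or below on all arrays. Foxi1, an inner ear factor, read 2.84, 2.85 and 2.78 on the labelled-null arrays and 2.92, 2.90 and 2.96 on the wild-type arrays, a separation at background level.

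Probe sets of a gene can target different parts of its transcripts. Of the 37 members, 21 had over 1 set, which gave 45 sets besides the brightest ones, and 22 of these averaged over 6 on the log2 scale. Among the 22, the second Foxc1 set differed by -0.50, the 5 of Foxp1 by -0.25 to -0.11, the 2 of Foxo1 by -0.14 and -0.08, the 4 of Foxp2 by -0.11 to -0.04 and the 1 of Foxp4 by -0.23, while the bright further set of Foxo3 differed by 0.20 and that of Foxj3 by 0.06. Those of Foxk2 differed by -0.15 and -0.05 and those of Foxn3 by -0.14 to 0.09, against 0.01 and 0.03 on their brightest sets. Foxc2 and Foxd1 each rest on 1 set.

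**Figure D3:**
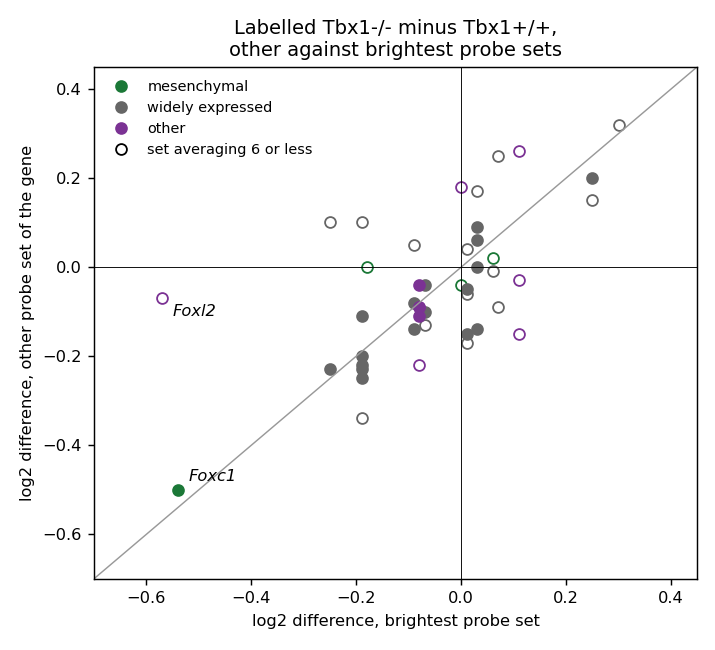
Log2 difference, labelled Tbx1-/- minus Tbx1+/+, of each further forkhead probe set against that of the brightest set of the same gene, coloured by group. Open points are sets averaging 6 or less, and the line marks equal differences. The second Foxc1 set lies near the line at -0.50, and the dim second Foxl2 set lies off it at -0.07.

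The 4 lower genes kept their side under each alternative tried. Their unadjusted p was under 0.05 in limma in all 14 alternatives, 6 of which leave out 1 array each. With 1 array left out, Foxc1 ranged from -0.59 to -0.47, Foxc2 from -0.62 to -0.48, Foxd1 from -0.67 to -0.52 and Foxl2 from -0.67 to -0.44. Over the other alternatives Foxl2 reached -0.75 with array weights and -0.32 with the mean of its sets. Without labelled-null replicate 3, the array with placental transcripts, 5 forkhead genes were lower and 1 higher at that level, the additions being Foxp4 and Foxo3, against 1.42% of all genes lower and 1.77% higher in that fit. The lowest adjusted p-values reached in limma were 0.0742 for Foxc2 with the replicate block and 0.0898 for Foxc1 with array weights. At the other end, they were 0.928 for Foxc1 and 0.999 for Foxc2 and Foxd1 without wild-type replicate 1. The block raised the genes called over all genes to 10 (0.0622%), none of them a forkhead gene.

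**Figure D4:**
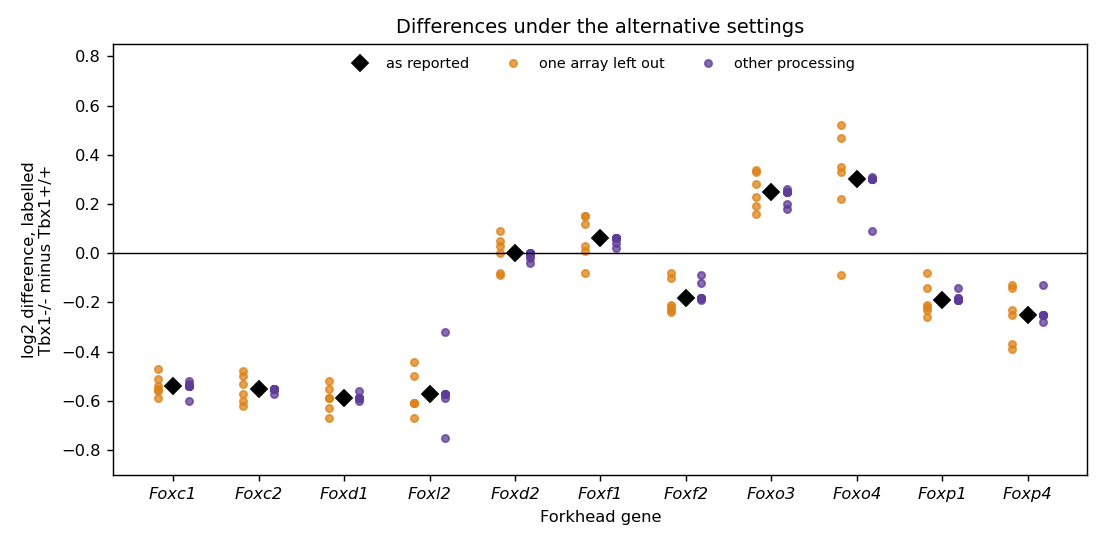
Log2 difference, labelled Tbx1-/- minus Tbx1+/+, of 11 forkhead genes as reported (diamonds), with 1 array left out (orange) and under the other alternatives (purple). Foxc1, Foxc2, Foxd1 and Foxl2 stay below 0 throughout, and Foxo4 drops to -0.09 when labelled-null replicate 3 is left out.

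Marker lists of the cells in the arch were read beside these genes, as counts at an unadjusted p under 0.05 in limma. Of all genes, 1.20% passed that level as lower and 1.47% as higher. The lists were chosen with earlier results of these data known, so their counts are descriptions and not tests. Of 10 markers of arch mesenchyme, 0 were lower and 1, Alx4, was higher, and the log2 of their summed level was 14.82 to 14.86 on the labelled-null arrays and 14.77 to 14.88 on the wild-type arrays. Endothelial markers, read because Foxc1 and Foxc2 are also vessel genes, had 0 of 9 past that level (1, Esam, higher with the replicate block), and sums of 11.30 to 11.41 on the labelled-null arrays and 11.23 to 11.36 on the wild-type arrays. Of the head mesoderm and muscle precursor markers, 5 of 5 were lower (Tcf21, Myf5 and Lhx2 by -1.53, -2.33 and -1.71, of which the first pair passed the adjusted threshold with adjusted p = 0.0184 and 0.0493), and their sum was 7.40 to 7.72 on the labelled-null arrays and 9.05 to 9.17 on the wild-type arrays. Hypoxia markers were higher in 10 of 12 cases (11 with the replicate block, where Adm and Ndrg1 passed the adjusted threshold), with sums of 15.47 to 15.74 on the labelled-null arrays and 15.08 to 15.23 on the wild-type arrays. Across genotypes the head mesoderm list was lower, like Foxc1, Foxc2, Foxd1 and Foxl2, and the hypoxia list was higher. The part of both lists in the differences of these forkhead genes was not tested.

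The other cell types that the tissue could hold were counted in the same way. Pharyngeal endoderm had 1 of 9 higher (Krt18, whose value of 13.50 on labelled-null replicate 3 was the highest), and Krt8 joined it with the replicate block. Oral and surface ectoderm had 0 of 9 in either direction, and 1 lower, Krt5, with the block. Crest glia and sensory neurons had 2 of 9 higher, Stmn2 and Pou4f1, and the second arch list had 1 of 3 higher, Hoxa2. Hoxa2 read 5.65, 6.34 and 4.72 on the labelled-null arrays and 3.54, 3.16 and 3.15 on the wild-type arrays, so it passed the filter through the labelled-null arrays alone. Blood and macrophage lists had 0 of 5 each in either direction. The placental list had 0 of 4 tested, as its markers were high on a single array. Of 6 yolk sac endoderm markers 2 were lower, Ttr and Afp, and 4 with the replicate block.

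Genes known to act before or after forkhead factors were counted likewise, against the same shares of all genes (1.20% lower and 1.47% higher). In the hedgehog pathway, which acts on Foxf and Foxd genes, 2 of 13 were lower and 0 higher: Hhip, a hedgehog-binding antagonist and target, by -0.42 (SE 0.12) and the ligand Shh by -0.43 (SE 0.19). Shh read 9.79, 9.06 and 9.12 on the labelled-null arrays and 9.88, 9.63 and 9.78 on the wild-type arrays, with labelled-null replicate 1 inside the wild-type range. The transcriptional target Gli1 differed by -0.14 (SE 0.10). The median of the list was -0.05.

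Of 19 Foxo target genes, 5 were higher and 0 lower, with a median of 0.06. Bnip3, a mitophagy gene that is also on the hypoxia list, differed by 0.78 (SE 0.18), Cited2, a regulator of the hypoxia response, by 0.36 (SE 0.13) and Bcl6, a repressor, by 0.41 (SE 0.16). The hypoxia markers moved the same way, and their part was not tested. Of 14 Foxm1 mitotic target genes 0 passed in either direction, with a median of -0.03, and of 11 Foxj1 ciliary target genes tested likewise 0, with a median of -0.02. Of 10 endoderm genes bound by Foxa factors, 3 were lower and 1 higher: Ttr by -1.78 (SE 0.49), Afp by -1.47 (SE 0.47) and Apoa2 by -0.79 (SE 0.29), and Sox17 by 0.64 (SE 0.20). Apoa2 was named after its value was seen. Ttr and Afp also mark yolk sac endoderm, and Ttr read 4.75, 6.10 and 5.98 on the labelled-null arrays and 6.42, 8.32 and 7.42 on the wild-type arrays. None of these upstream and target genes passed the adjusted threshold. With the replicate block, 5 of the 10 endoderm genes were lower, and Ttr passed it (adjusted p = 0.0361 in limma).

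**Figure D5:**
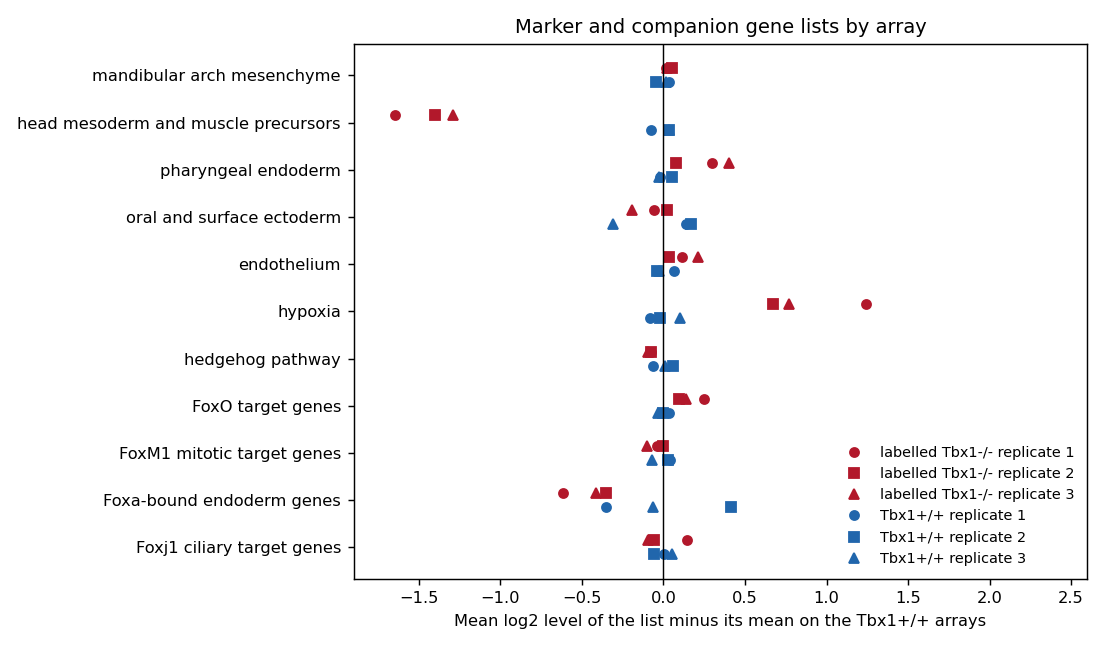
Mean log2 level of 11 marker, pathway and target lists on each array, minus its mean on the wild-type arrays, labelled Tbx1-/- in red and Tbx1+/+ in blue (circle, square and triangle for replicates 1, 2 and 3). Head mesoderm markers are lower and hypoxia markers higher on all 3 labelled-null arrays, while arch mesenchyme markers lie close to 0.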

How the data were processed

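The authors deposited 1 log2 value for each probe set and Affymetrix array, made with GCRMA per the submitters' processing notes (version not given in the sources used here). GCRMA corrects background by probe sequence and normalizes between arrays, so a shift of most genes would be removed and differences near background are compressed. Per the labels' protocols, cDNA was amplified from total RNA. The log2 scale was read from the values. Of 45101 probe sets, 34958 had 1 gene symbol, and 34754 of these matched the RefSeq gene table by gene ID, with 0 symbols changed. Each gene was represented by its brightest set, and 16074 of 18194 genes exceeded 4 on at least 3 arrays and were tested.

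Genotypes were compared with limma 3.58.1 in R 4.3.3 (lmFit, eBayes with an intensity trend), adjusted by Benjamini-Hochberg over all genes, threshold 0.05. The limma step was tested on simulated data. The number of arrays, 3 per genotype, limits the precision. Members and lists were chosen with earlier results of these data known, and the pairs of members after their values were seen. Every member is accounted for, with array values for those with an unadjusted p under 0.05, groups without overlap or a known developmental role, and of each marker, pathway or target list up to 3 genes with the smallest p were to be named. 0 pairs of arrays held identical values. Deviations of same-numbered arrays from their group's mean correlated at 0.261, 0.130 and 0.135 and at -0.195 to 0.065 otherwise, over the genes tested, and at 0.280, 0.070 and 0.118 over all probe sets. Pairing by number was thus taken as possible, and counts of calls with the number as a block are given where they differ.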

Additional observations from a re-analysis of the deposited data

How the results depend on the processing

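Over 14 alternatives, 0 forkhead genes passed the adjusted threshold in limma, and 4 to 6 had an unadjusted p under 0.05. Foxc1, Foxc2, Foxd1 and Foxl2 were among them each time. In the same fits, 0.844% to 2.39% of all genes were lower at that unadjusted level and 1.27% to 2.35% higher. Of 445 member values under alternatives, 395 had the sign of the reported value after rounding to 2 decimals. By that count 14 of the 32 members had 1 sign throughout. A rounded 0.00 was counted as a sign of its own, so Foxd2 and Foxn1 matched only alternatives that also rounded to 0.00. The genes called over all genes, 6 as reported, numbered 2 with all genes kept, 2 with a floor of 4 on the values, 2 without the intensity trend and 0 with the mean of probe sets in limma (where 246 genes averaged higher and 231 lower past an unadjusted p of 0.05). They numbered 10 with the replicate block, which changed no forkhead call, and from 0 to 21 with 1 array left out (0 in the absence of Tbx1+/+ replicate 3, where 283 were higher and 210 lower past that unadjusted level, and 21 in the absence of Tbx1-/- replicate 3). The median of mesenchymal members was -0.15 without the filter, as Foxd3 and Foxd4 then enter, and that of widely expressed members was -0.04 with array weights (the cause was not tested). The median of all forkhead genes, -0.01, ranged from -0.06 (Tbx1-/- replicate 1 left out) to 0.01 (Tbx1-/- replicate 2 left out). Foxl2 was -0.32 with the mean of its sets. Signal near background limits Foxj1, Foxs1 and Foxn1, and Foxj1 did not pass the filter in 3 of the fits that leave out an array.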
